A study of Mus musculus with 12 samples.

Results

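The genes of MHC class II antigen presentation were examined in pituitary tumors of POMC KO mice and in normal mouse pituitary. The 7 genes are H2-Aa, H2-Ab1, H2-Eb1, H2-DMa, H2-DMb1, Cd74 and Ciita, listed for their roles in the pathway, and a probe set was taken as a member when its array annotation named exactly 1 gene and that gene was on the list. This gave 14 of the 45037 probe sets other than controls, for 6 of the 7 genes. H2-DMb1 had no probe set of its own, because both probe sets that name it also name H2-DMb2, and it is left without a value. The 12 arrays, of the type Affymetrix Mouse Genome 430 2.0, were hybridized with pituitary RNA. Of these, 2 held pituitary tumors of homozygous POMC KO mice (both copies of the pro-opiomelanocortin gene knocked out), 8 held pituitary tumors of heterozygous POMC KO mice (1 copy knocked out) and 2 held normal mouse pituitary. No mouse was treated. The labels give no strain, sex or age, and the study's methods name pooled normal pituitary as the reference, so the normal arrays may or may not hold single glands.

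MHC class II molecules are pairs of an alpha and a beta chain that show peptides from ingested material to CD4+ T cells. They are made mainly by professional antigen presenting cells, which are dendritic cells, macrophages and B cells, and in most other cells only after exposure to interferon gamma. The pair is assembled in the endoplasmic reticulum with the invariant chain (Cd74), which blocks the peptide groove and steers the complex to endosomes. There proteases trim the invariant chain to a short remnant, and the DM heterodimer (H2-DMa with H2-DMb1 or H2-DMb2) exchanges that remnant for a peptide. Ciita is the coactivator that switches the whole set on, acting through factors bound to a conserved promoter module known as the S, X and Y boxes. In the RefSeq annotation H2-DMa, H2-DMb1, H2-Ab1, H2-Aa and H2-Eb1 lie in this order on mouse chromosome 17, within the MHC, whereas Ciita and Cd74 lie on chromosomes 16 and 18.

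RefSeq promoter windows (GRCm38.p6) were matched for 4 of the 7 genes. Because the members are switched on through a shared promoter module, the 150 bases before the RefSeq start are shown 5′ to 3′ for the 3 genes in which the letters GNAACT (N for any base, part of the X box) and GATTGG (the core of the Y box) followed each other. Both are in capitals.
H2-Aa, chr17:34287824-34287973, minus strand: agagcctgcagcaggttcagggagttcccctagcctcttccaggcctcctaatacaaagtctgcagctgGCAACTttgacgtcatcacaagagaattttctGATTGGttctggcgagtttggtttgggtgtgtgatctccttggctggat
H2-Eb1, chr17:34305717-34305866, plus strand: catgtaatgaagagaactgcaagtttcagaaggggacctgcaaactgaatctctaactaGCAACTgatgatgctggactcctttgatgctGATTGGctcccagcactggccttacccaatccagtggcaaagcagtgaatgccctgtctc
H2-DMb1, chr17:34153041-34153190, plus strand: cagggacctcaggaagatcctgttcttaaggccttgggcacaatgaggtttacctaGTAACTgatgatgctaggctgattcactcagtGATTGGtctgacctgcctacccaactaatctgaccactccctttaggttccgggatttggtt
The Y box core began 49 bases before the start in H2-Aa, 60 in H2-Eb1 and 62 in H2-DMb1. The gap between the 2 motifs was 26, 25 and 26 bases in the same order. Of 32851 mouse promoter windows of the same length searched on both strands, 10.9% held GATTGG, 23.6% held GNAACT and 0.274% (90) held both in this order with 10 to 40 bases between them. The 2 motifs share no letters at their ends and were counted separately. The letters GNAACT were read off these promoters, so their match is by construction. Neither of the 2 windows listed for H2-DMa held the pair, which says only that these letters are not in those windows.

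Each tumor array was nearly identical to 1 other array of its genotype. The tumor arrays paired by number (1-2, 3-4, 5-6 and 7-8 of the heterozygous group and 1-2 of the homozygous group), with r = 0.997 to 0.998 across probe sets and 0 to 4 probe sets differing by over 2-fold within a pair, against r = 0.986 to 0.993 and 433 to 982 probe sets between different heterozygous pairs. The 2 normal arrays differed at 309 probe sets. Each pair differed by less than single samples do and was averaged and counted as 1 sample, which leaves 1 homozygous, 4 heterozygous and 2 normal samples, although the series description counts every array as a mouse. Pomc was at 7.18 in the homozygous tumor, 15.15 to 15.30 in the heterozygous tumors and 15.08 and 15.11 in normal pituitary on the log2 scale, and the pituitary hormones Gh and Prl were among the brightest probe sets in every group (Gh was at 14.72 in the homozygous tumor, averaged 14.16 in the heterozygous tumors and 14.86 in normal pituitary). The mean of 8 pituitary genes, Pomc among them, was nevertheless lower in the tumors, at 11.28 in the homozygous tumor, 10.29 to 11.84 in the heterozygous tumors, and 13.25 and 13.30 in normal pituitary. The homozygous mean is lowered by Pomc itself, the gene knocked out. Prl, Cga, Tshb, Lhb and Pitx1 were higher in the homozygous tumor than in all 4 heterozygous tumors, and Gh and Fshb lay within the heterozygous range. Of the 8 genes, the hormone subunits Fshb, Lhb and Tshb were called lower in heterozygous tumors (log2 fold changes -5.89, -4.84 and -3.90, adjusted p of at most 0.0191 by limma) and were not called in homozygous tumors (-4.26, -3.25 and -1.44). The part of this difference in the class II levels was not tested. Xist was high in the homozygous tumor (11.20) and in heterozygous arrays 3-4 and 7-8 (10.93 and 11.25), and between 4.57 and 5.07 in the other samples. The only homozygous sample was thus high and both normal samples were low. Genotype and Xist level therefore cannot be told apart between the homozygous and normal groups.

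Expression of the class II chains, of H2-DMa and of Cd74 was highest in the homozygous tumor, intermediate in the heterozygous tumors and lowest in normal pituitary. All values below are log2 signals, in which 1 unit is a 2-fold difference, and the heterozygous values stand in the order of arrays 1-2, 3-4, 5-6 and 7-8. The median over all probe sets and arrays, 5.74, served as the limit for low values. Of the 14 member probe sets, 9 (for 5 genes) were at or above it on all 12 arrays. Another H2-Aa probe set, 1443783_x_at, passed it only on the homozygous arrays, and the other 4 (all 3 of Ciita and 1 of H2-DMa) were under it on all 12 arrays and were not tested.

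The class II chains were bright in every sample. H2-Aa, the alpha chain of the I-A molecule, had 4 probe sets. In 1435290_x_at it was at 10.96 in the homozygous tumor, 9.80, 9.89, 10.35 and 10.35 in the heterozygous tumors (10.10 ± 0.29, SD, n = 4), and 9.62 and 9.67 in normal pituitary. The homozygous tumor lay above all heterozygous tumors and these above both normal samples, with arrays 5-6 and 7-8 apart from arrays 1-2 and 3-4. In 1452431_s_at it was at 9.03 in the homozygous tumor, 8.22, 8.08, 8.64 and 8.33 in the heterozygous tumors, and 7.79 and 7.90 in normal pituitary. In 1438858_x_at it was at 10.35 in the homozygous tumor, 9.30, 9.45, 9.98 and 9.90 in the heterozygous tumors, and 9.09 and 9.29 in normal pituitary. Here the groups also did not overlap, although heterozygous arrays 1-2 exceeded the higher normal sample by little (9.30 against 9.29). The dim probe set 1443783_x_at was at 5.99 in the homozygous tumor, 4.56, 4.73, 5.47 and 4.92 in the heterozygous tumors, and 4.56 and 4.55 in normal pituitary, so that heterozygous arrays 1-2 were no higher than normal. The suffixes x and s mark probe sets in which some or all probes can match more than 1 transcript, and transcripts of closely related class II genes may bind to them too.

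H2-Ab1, the beta chain that pairs with H2-Aa, gave the same order in its 3 probe sets. In 1450648_s_at it was at 9.48 in the homozygous tumor, 8.86, 8.74, 9.18 and 8.70 in the heterozygous tumors (8.87 ± 0.22, SD, n = 4), and 7.94 and 8.32 in normal pituitary (8.13 ± 0.27, SD, n = 2). In 1451721_a_at it was at 8.83 in the homozygous tumor, 8.33, 8.06, 8.59 and 8.26 in the heterozygous tumors, and 7.22 and 7.62 in normal pituitary. The third, 1425477_x_at, was at 7.79 in the homozygous tumor, 7.04 to 7.61 in the heterozygous tumors, and 6.31 and 6.68 in normal pituitary. In all 3 the second normal array was above the first by somewhat less than the range of the heterozygous tumors, and no group overlapped another.

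H2-Eb1, the beta chain of the I-E molecule, was at 9.88 in the homozygous tumor, 9.21, 8.89, 9.49 and 9.19 in the heterozygous tumors (9.19 ± 0.25, SD, n = 4), and 8.64 and 8.70 in normal pituitary. H2-DMa, the alpha chain of the peptide editor, was at 7.53 in the homozygous tumor, 7.35, 7.11, 7.27 and 7.09 in the heterozygous tumors (7.21 ± 0.12, SD, n = 4), and 6.63 and 6.49 in normal pituitary. For both genes the homozygous tumor was above all heterozygous tumors, by less than the heterozygous tumors ranged among themselves. The other H2-DMa probe set, 1459872_x_at, lay between 3.75 and 4.09 in all 7 samples and showed no order of the groups.

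Cd74, the invariant chain, was at 10.90 in the homozygous tumor, 10.40, 10.32, 10.58 and 10.12 in the heterozygous tumors (10.35 ± 0.19, SD, n = 4), and 9.42 and 9.80 in normal pituitary (9.61 ± 0.26, SD, n = 2). Arrays 5-6 were the highest and arrays 7-8 the lowest heterozygous sample, and the groups did not overlap. Ciita, the coactivator, was dim throughout. Its brightest probe set, 1421210_at, was at 4.72 in the homozygous tumor, 4.63, 4.46, 4.57 and 4.37 in the heterozygous tumors, and 4.30 and 4.52 in normal pituitary. The other 2 probe sets of Ciita lay between 3.09 and 3.98, and 0 of the 3 reached the limit for low values on any of the 12 arrays. A difference in Ciita was not measurable at these signals.

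**Figure D1:**
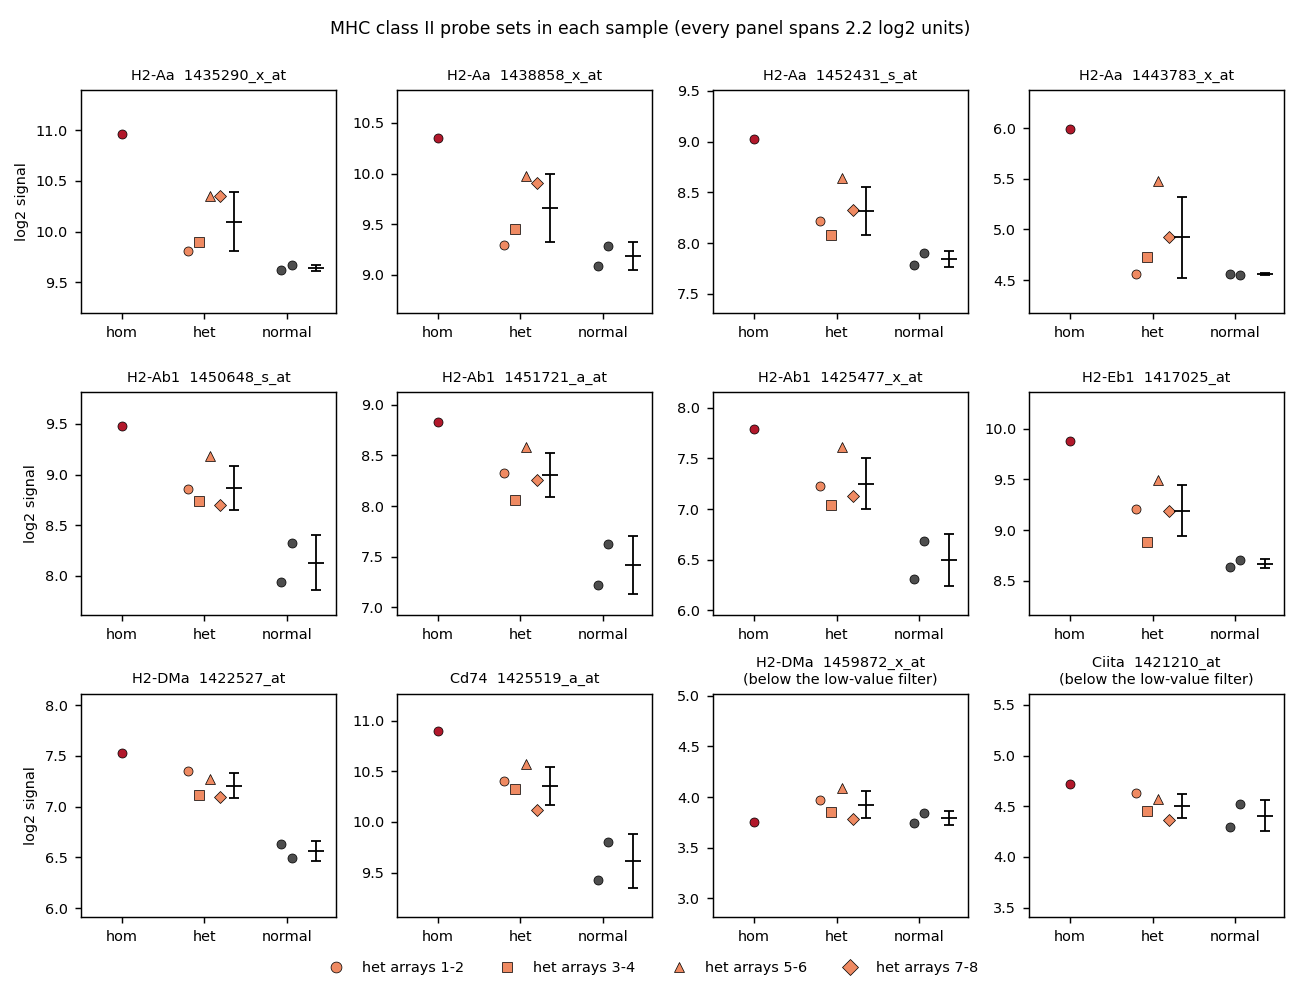
Log2 signal (vertical axis) of 12 of the 14 MHC class II probe sets in the homozygous tumor (hom), the 4 heterozygous tumors (het, 1 symbol for each pair of arrays) and the 2 normal pituitary samples, with bars for mean and SD of the heterozygous and normal groups. In 9 panels the homozygous tumor lies above all heterozygous tumors and these above both normal samples, as for Cd74 at 10.90, 10.12 to 10.58, and 9.42 and 9.80.

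In homozygous tumors against normal pituitary, class II chains and the invariant chain were 2.27-fold to 2.65-fold higher where they passed both thresholds. With limma, 5 of the 9 probe sets above the limit on all arrays were called (adjusted p under 0.05 over all 24486 tested probe sets and a fold change over 2), all of them higher, where 1.26% of all tested probe sets were called higher and 2.33% in either direction. These were H2-Ab1 in 1451721_a_at (log2 fold change 1.41, SE 0.25, adjusted p = 0.0383) and in 1450648_s_at (1.35, SE 0.25, adjusted p = 0.0403), Cd74 (1.29, SE 0.24, adjusted p = 0.0395), H2-Eb1 (1.21, SE 0.24, adjusted p = 0.0482) and H2-Aa in 1452431_s_at (1.18, SE 0.24, adjusted p = 0.0493). H2-DMa passed the p threshold at 1.96-fold, just under the fold threshold (log2 fold change 0.97, SE 0.18, adjusted p = 0.0383), so that 6 of the 9 passed the p threshold, as did 2.77% of all tested probe sets. The other 3 were over 2-fold and missed the p threshold, H2-Aa in 1435290_x_at (log2 fold change 1.32, adjusted p = 0.051) and in 1438858_x_at (1.16, adjusted p = 0.0989) and H2-Ab1 in 1425477_x_at (1.29, adjusted p = 0.055). The dim H2-Aa probe set 1443783_x_at had a log2 fold change of 1.43 with an adjusted p of 0.0809.

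The median log2 fold change of the 9 was 1.29, against 0.01 over all tested probe sets. Of all tested probe sets, 1.56% had a log2 fold change at or above that of H2-Ab1 (1451721_a_at), 1.94% at or above that of Cd74 and 3.78% at or above that of H2-DMa. In all 9 the homozygous tumor was above both normal samples, as it was in 39.8% of all tested probe sets. More cells that carry class II and more class II RNA per cell cannot be told apart in bulk tissue. The homozygous group is 1 sample, assumed to vary as the others do, and the calls rest on both normal arrays and on the heterozygous spread. Without either normal array the normal group is 1 sample too. Calls were then lost over the whole array, those of all member probe sets among them. Without heterozygous arrays 1-2 or arrays 3-4, 0 member probe sets were called, beside 1.98% and 1.35% of all tested probe sets. Without arrays 5-6, 7 were called (2.47% of all), and 4 without arrays 7-8 (2.67%). When arrays were centred on housekeeping genes 1 was called (2.36%). The median log2 fold change of the 10 tested member probe sets stayed between 1.14 and 1.38 when 1 sample was left out. With Xist as a covariate this median was 1.54, against 1.29 without it, but fewer member probe sets were called, 4 instead of 5 (1.67% of all tested probe sets).

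In heterozygous tumors against normal pituitary, the same 5 genes were higher by less, at 1.37-fold to 1.85-fold. H2-Ab1, H2-DMa and Cd74 passed the p threshold and 0 of the 9 probe sets passed both thresholds, where 4.91% of all tested probe sets were called higher and 8.68% in either direction. H2-DMa had a log2 fold change of 0.64 (SE 0.12, adjusted p = 0.0107). H2-Ab1 in 1451721_a_at had the largest, at 0.89 (SE 0.18, adjusted p = 0.0131), and its other probe sets were at 0.74 (adjusted p = 0.0244) and 0.75 (adjusted p = 0.0296). Cd74 had a log2 fold change of 0.74 (SE 0.17, adjusted p = 0.0191). H2-Eb1 (0.52, SE 0.17, adjusted p = 0.0647) and the 3 bright probe sets of H2-Aa (0.45 to 0.47, adjusted p = 0.0828 to 0.158) missed the p threshold.

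The 5 of 9 that passed the p threshold at any fold stand beside 22.1% of all tested probe sets in either direction and 12.4% with higher values. The median of the 9 was 0.64, against 0.03 over all tested probe sets, and 6.5% of all tested probe sets had a log2 fold change at or above that of H2-Ab1 (1451721_a_at). All 4 heterozygous tumors were above both normal samples in all 9, as in 25.5% of all tested probe sets. At an unadjusted p under 0.05 by limma, 8 of the 9 were higher, beside 20.4% of all tested probe sets, and a one-way test on the 12 arrays called 0 of them and 8.5% of all tested probe sets. Without normal array 1 the member probe sets no longer passed the adjusted p threshold, and without normal array 2 fewer did. The normal group was then 1 sample, and calls fell over the whole array too. The median log2 fold change of the 10 tested member probe sets was 0.52 without normal array 1 and 0.57 without normal array 2, against 0.58 with both.

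Homozygous tumors were above heterozygous tumors in all 9 probe sets, by 1.25-fold to 1.82-fold, and 0 of them passed the limma test (adjusted p = 0.315 to 0.62), where 0.212% of all tested probe sets were called higher and 0.249% in either direction. The difference was 0.86 on the log2 scale for H2-Aa in 1435290_x_at (95% confidence interval 0.29 to 1.43), 0.69 for H2-Eb1 (0.18 to 1.2), 0.61 for H2-Ab1 in 1450648_s_at (0.08 to 1.15), 0.54 for Cd74 (0.04 to 1.05) and 0.32 for H2-DMa (-0.05 to 0.70). The homozygous value exceeded that of all 4 heterozygous tumors in all 9, as in 18.5% of all tested probe sets. At an unadjusted p under 0.05, 6 of the 9 were higher, beside 4.09% of all tested probe sets, and the one-way test on the 12 arrays called 0 of them and 2.35% of all tested probe sets. The comparison of each genotype with normal pituitary uses the same 2 normal samples, so both carry any error of those arrays.

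**Figure D2:**
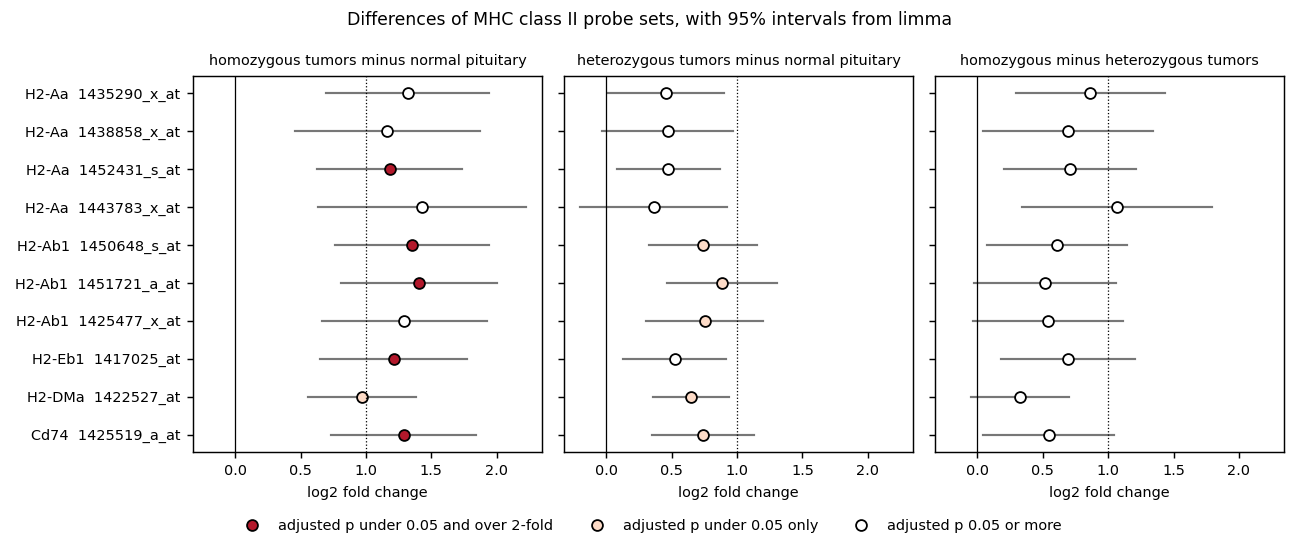
Log2 fold change (horizontal axis) with 95% confidence intervals from limma for the 10 tested MHC class II probe sets, in homozygous tumors against normal pituitary, heterozygous tumors against normal pituitary and homozygous against heterozygous tumors, with a dotted line at 2-fold. Dark points passed both thresholds (5 probe sets, homozygous against normal), pale points the adjusted p alone, and all 30 points lie above 0.

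Among the heterozygous tumors the members did not vary in one order. Averaged over the 9 probe sets, the level was 9.42 in the homozygous tumor, 8.74, 8.62, 9.08 and 8.79 in the heterozygous tumors, and 8.07 and 8.27 in normal pituitary. Arrays 5-6 were the highest heterozygous sample in 7 of the 9. The lowest was arrays 3-4 in 4, arrays 7-8 in 3 and arrays 1-2 in 2. The lowest sample differed also between probe sets of 1 gene, as for H2-Ab1, where it was arrays 7-8 in 1450648_s_at and arrays 3-4 in the other 2.

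Over the 7 samples, the 45 pairs of the 10 tested probe sets had Pearson correlations of 0.684 to 0.995 (median 0.909), which include the differences between the groups. The probe set most like Cd74 among 12315 genes was that of H2-Ab1 (r = 0.991). H2-DMa followed at rank 53 (r = 0.921), H2-Eb1 at rank 73 (r = 0.909) and H2-Aa, represented by its brightest probe set 1435290_x_at, at rank 552 (r = 0.793), whereas H2-Aa in 1452431_s_at had r = 0.902. The 10 genes outside the pathway with the most similar pattern to Cd74 were Bpgm, Pitx1, Sil1, Evi2a, Dynll2, Fam120aos, Cd52, Hspa1b, Aga and Snx3, with r = 0.986 to 0.955. Of these, Cd52, a surface glycoprotein of leukocytes, had log2 fold changes of 1.40 in homozygous and 1.02 in heterozygous tumors against normal pituitary. Hspa1b, an inducible heat shock protein, had 3.0 and 2.25, and Evi2a 1.59 and 1.04. Pitx1, a transcription factor of pituitary cells, had 1.14 in homozygous tumors and 0.73 in heterozygous tumors. Sil1 had 0.93 and 0.47, and Aga 0.72 and 0.52. Bpgm, Dynll2, Fam120aos and Snx3 had 0.23 to 0.60 in homozygous and 0.13 to 0.30 in heterozygous tumors. Genes chosen for a pattern like that of Cd74 are higher in the tumors by that choice, so these differences are a description. With 7 samples in 3 groups, these correlations describe the order of the samples and carry no test.

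The class II genes outside the list were not called. H2-Eb2, a second beta chain gene of the I-E region, was at 8.03 in the homozygous tumor, 8.53, 6.81, 7.59 and 7.48 in the heterozygous tumors, and 7.06 and 7.08 in normal pituitary, and the heterozygous tumors reached to both sides of the other groups (adjusted p = 0.431 in homozygous and 0.379 in heterozygous tumors by limma). H2-Ea, the alpha chain of I-E, was level, at 6.89 in the homozygous tumor, 6.75 to 6.89 in the heterozygous tumors, and 7.04 and 6.78 in normal pituitary. H2-Oa and H2-Ob, which form the inhibitor of DM, and H2-DMb2 stayed under the limit for low values. Nor were any of the 7 factors that bind the class II promoter called in either genotype (median log2 fold change 0.04 in homozygous and 0.05 in heterozygous tumors), among them Rfx5, a subunit of the X box complex (0.20 and 0.10), and Creb1 (-0.11 and -0.15). Over the whole array 2.33% of tested probe sets were called in homozygous and 8.68% in heterozygous tumors.

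Of 7 tested genes of the interferon gamma pathway upstream of Ciita, 1 was called in heterozygous tumors, where 8.68% of all tested probe sets were. In homozygous tumors 0 were called, beside 2.33% of all tested probe sets. Irf8, a transcription factor of myeloid cells, had a log2 fold change of 1.06 in homozygous tumors (adjusted p = 0.146) and was called in heterozygous tumors (1.55, SE 0.23, adjusted p = 0.00391). The kinase Jak1 passed the p threshold with lower values, at -0.80 in homozygous tumors (adjusted p = 0.0496) and -0.82 in heterozygous tumors (adjusted p = 0.00292). Ifng itself, the ligand, was between 2.92 and 3.31 in every sample and was not tested.

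Of 9 tested genes of endosomal processing, 2 were called in both genotypes, both higher. Of all tested probe sets, 1.26% were called higher in homozygous and 4.91% in heterozygous tumors. Ctss, cathepsin S, which cleaves the invariant chain, was at 10.46 in the homozygous tumor, 10.82, 11.04, 10.96 and 10.58 in the heterozygous tumors, and 9.09 and 9.36 in normal pituitary (log2 fold change 1.24, adjusted p = 0.0395, in homozygous tumors and 1.63, adjusted p = 0.000853, in heterozygous tumors). Unlike the class II chains, Ctss was lower in the homozygous tumor than in all 4 heterozygous tumors. Ifi30, a thiol reductase that unfolds antigens, was at 9.39 in the homozygous tumor, 9.51, 9.43, 9.23 and 9.56 in the heterozygous tumors, and 8.38 and 8.38 in normal pituitary (1.01, adjusted p = 0.0377, and 1.05, adjusted p = 0.00182). Neither was called in homozygous tumors when either normal array was left out, where calls fell over the whole array. The median over the 9 genes was 0.10 in homozygous and 0.44 in heterozygous tumors. All 9 genes of class II trafficking and turnover, Lamp1 and Clta among them, were not called (median -0.29 in each genotype). Over the whole array 2.33% of tested probe sets were called in homozygous and 8.68% in heterozygous tumors.

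Of 5 tested costimulatory genes, 1 was called in heterozygous tumors (8.68% of all tested probe sets were). Tnfsf9, the ligand of 4-1BB, had a log2 fold change of 0.88 in homozygous tumors (adjusted p = 0.185) and 1.66 in heterozygous tumors (adjusted p = 0.00228), whereas Cd80 and Cd86 stayed under the limit for low values. Of 3 tested T cell partners, 1 was called in homozygous tumors, beside 2.33% of all tested probe sets. This was Cd3d (1.17, adjusted p = 0.0426), at 6.13 in the homozygous tumor, 4.90 to 5.34 in the heterozygous tumors, and 4.84 and 5.08 in normal pituitary. It was tested only because it reached the limit for low values on the homozygous arrays, so this is a description, and it missed the thresholds when either normal array was left out. Cd4, the coreceptor for class II, was at 5.92 in the homozygous tumor, 5.66 to 5.76 in the heterozygous tumors, and 5.54 and 5.69 in normal pituitary, which passed no threshold. Of 11 tested genes of MHC class I and its loading, 0 were called (median 0.42 in homozygous and 0.13 in heterozygous tumors), beside 2.33% and 8.68% of all tested probe sets. Among them the chaperones Pdia3 and Calr had log2 fold changes of 0.63 and 0.49 in homozygous tumors and 0.33 and 0.13 in heterozygous tumors, the class I heavy chain H2-K1 had 0.44 and 0.26, and its light chain B2m had -0.17 and -0.68 (adjusted p = 0.784 and 0.0371).

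**Figure D3:**
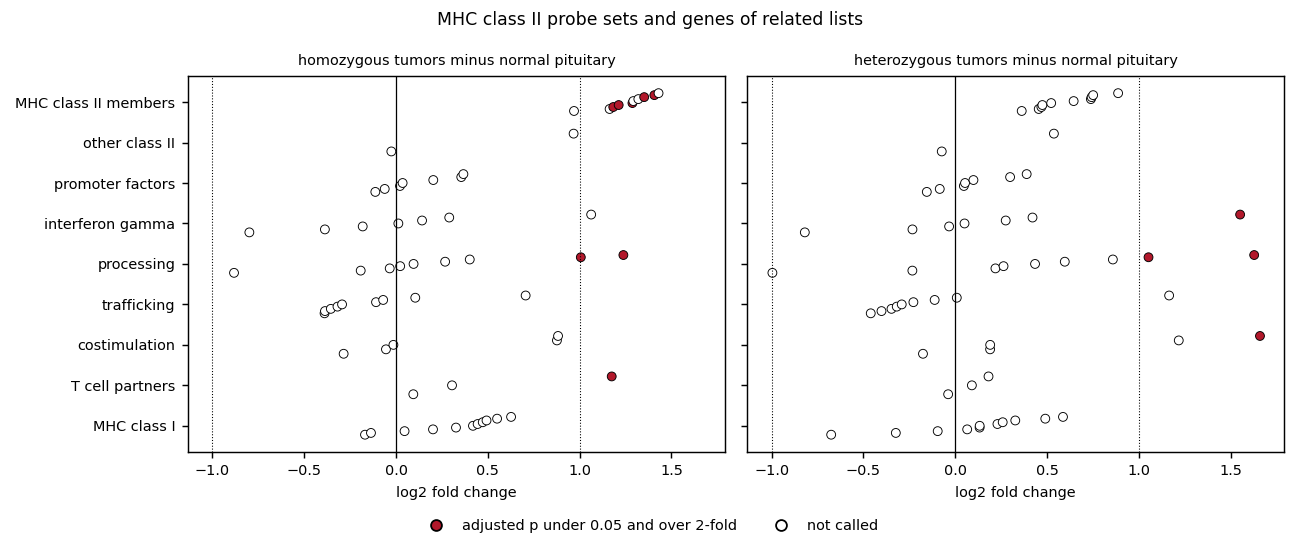
Log2 fold change (horizontal axis) of each tested MHC class II probe set and of each tested gene of the related lists, 1 point per probe set or gene, in homozygous and in heterozygous tumors against normal pituitary, with dotted lines at 2-fold. Dark points passed both thresholds, as did 5 class II probe sets in homozygous tumors and 0 in heterozygous tumors, while Ctss and Ifi30 did in both.

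Markers of macrophages, which carry class II, were also higher in the tumors, but in another order of the samples. The mean level of 14 macrophage markers was 7.36 in the homozygous tumor, 7.88, 8.24, 7.94 and 7.65 in the heterozygous tumors, and 6.30 and 6.54 in normal pituitary. This mean was thus lower in the homozygous tumor than in all 4 heterozygous tumors, where the 9 class II probe sets were higher. Its highest heterozygous sample (arrays 3-4) was the lowest for the class II mean. Not every marker followed the macrophage mean. In the homozygous tumor Aif1 (6.65), Cd14 (7.46) and Cx3cr1 (7.47) lay within the heterozygous ranges (5.72 to 6.68, 7.39 to 7.48 and 7.36 to 7.82). The other markers of the list were lower there than in all 4 heterozygous tumors. Of 13 tested macrophage markers, 1 was called higher in homozygous tumors (Lyz2, lysozyme, log2 fold change 3.10, adjusted p = 0.015 by limma), beside 1.26% of all tested probe sets. In heterozygous tumors 8 were called higher, beside 4.91% of all. Among them were Lyz2 (4.37, adjusted p = 0.000281), Cd68 (2.76, adjusted p = 0.00181), Mpeg1 (2.07, adjusted p = 0.00145) and Mrc1 (1.97, adjusted p = 0.0104). The median was 0.85 in homozygous and 1.54 in heterozygous tumors. Lyz2 was not called in homozygous tumors when either normal array was left out, where calls fell over the whole array. The part of macrophages in the class II levels was not tested.

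Markers of other antigen presenting cells were dim. The mean of 9 dendritic cell markers was 4.96 in the homozygous tumor, 4.98 to 5.16 in the heterozygous tumors and 5.0 in both normal samples, and 6 of the 9, Flt3, Zbtb46 and Xcr1 included, were not tested. Itgax passed both thresholds in heterozygous tumors (log2 fold change 1.08, adjusted p = 0.04), at 4.32 in the homozygous tumor, 6.05, 5.17, 5.63 and 4.90 in the heterozygous tumors, and 4.31 and 4.41 in normal pituitary. The homozygous and normal values of Itgax were under the limit for low values. Itgax was tested only because it reached that limit on heterozygous arrays, so this is a description. It missed the thresholds when either normal array was left out. The part of dendritic cells in the class II levels was not tested. The 6 B cell markers with a probe set were all under the limit for testing (highest value 5.65), with means of 4.58 in the homozygous tumor, 4.43 to 4.51 in the heterozygous tumors, and 4.67 and 4.79 in normal pituitary.

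Among cells that carry little or no class II, the mean of 6 T cell markers was 5.18 in the homozygous tumor, 4.74 to 4.89 in the heterozygous tumors, and 4.73 and 4.81 in normal pituitary. The mean of 4 neutrophil markers was 6.95 in the homozygous tumor, 6.36, 5.48, 5.23 and 5.10 in the heterozygous tumors, and 4.88 and 5.33 in normal pituitary. The means of both lists were highest in the homozygous tumor, as the class II mean was. However, 4 of the 6 T cell and 2 of the 4 neutrophil markers were under the limit for low values in every sample. Cd8a, Cd247 and Elane, which are among these, were not highest in the homozygous tumor. S100a8 was at 9.52 in the homozygous tumor, 8.64, 7.04, 6.49 and 5.84 in the heterozygous tumors, and 5.83 and 6.35 in normal pituitary, and S100a9 was at 8.68 in the homozygous tumor, against 5.67 to 7.67 in the heterozygous tumors and 4.71 and 5.71 in normal pituitary, with adjusted p = 0.12 and 0.0744 for homozygous tumors against normal pituitary by limma. Their part in the class II levels was not tested.

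**Figure D4:**
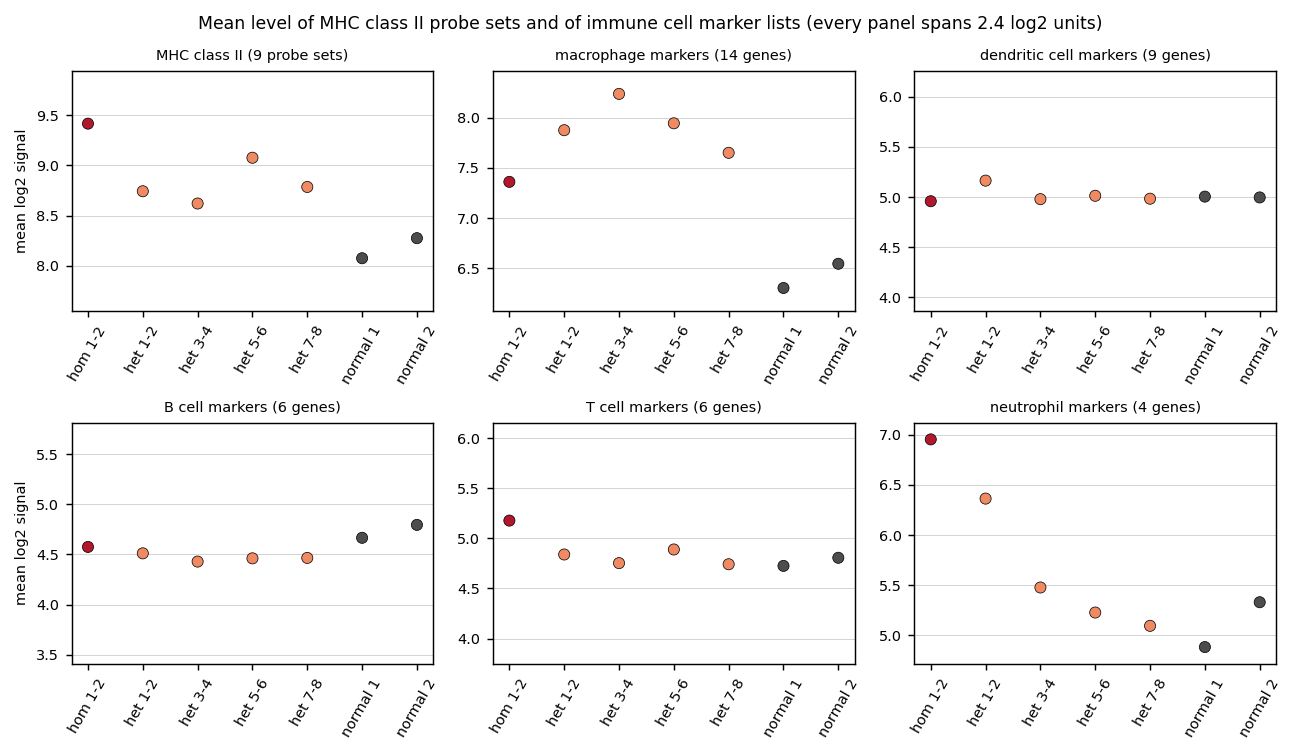
Mean log2 signal (vertical axis) of the 9 MHC class II probe sets above the limit for low values on all arrays and of 5 lists of immune cell markers, 1 point per sample, with the homozygous tumor at the left, then the heterozygous tumors and the normal samples. Class II is highest in the homozygous tumor (9.42), whereas the macrophage mean is highest in heterozygous arrays 3-4 (8.24) and lower in the homozygous tumor (7.36).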

How the data were processed

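The 12 arrays were deposited as log2 values. The authors obtained these by Robust Multichip Average analysis, for which the labels name Affymetrix Expression Console. This method corrects background, quantile normalizes across arrays and summarizes the probes of a set, so that differences between dim probe sets are compressed. The genome build behind the probe sets is not given in the sources used here. Gene names came from the platform annotation, in which 34945 probe sets name 1 gene, 932 several and 9160 none. A probe set was tested if on 2 or more arrays it reached the overall median (5.74), which left 24486 probe sets of 12316 genes. In the related lists a gene was represented by its brightest probe set on average. The samples, 7 in all, were fitted by genotype with limma 3.58.1 (R 4.3.3), leaving 4 residual degrees of freedom, with Benjamini-Hochberg adjustment over all tested probe sets, after the script was tested on simulated data. The p-values measure only the spread between these samples. The pairing of tumor arrays was inferred from the values. Promoters came from RefSeq (GRCm38.p6).

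The members, the gene lists and the averaging of array pairs were chosen with earlier results of these data known. The genes named are all members, Pomc, up to 4 genes of each related list (the most changed of those called in heterozygous tumors, or the 2 brightest where none was called) and the 10 genes most like Cd74. Jak1, Cd3d, H2-K1, B2m, Gh, Prl, Cga, Xist, Aif1, Cd14, Cx3cr1 and genes named as under the limit for low values were added after their values were seen. The 17 alternatives cover the unit of replication, the low-value filter, the normalization, the moderation, a one-way test of the kind the methods name, Xist as a covariate and leaving out samples. The number of arrays, and for dim probe sets the signal over background, limits the precision. Raw scanner files were not analysed here.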

Additional observations from a re-analysis of the deposited data

Results flagged for a closer look

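Pomc differed between the genotypes. It was lower by 8.07 on the log2 scale in homozygous tumors than in heterozygous tumors (log2 fold change -8.07, adjusted p = 4.91e-07 by limma), at 7.18 in the homozygous tumor, 15.15 to 15.30 in the heterozygous tumors and 15.08 and 15.11 in normal pituitary. Cd52, 1 of the 10 genes most like Cd74, had 1 heterozygous sample that stood apart. Arrays 5-6 were at 8.04, the nearest of the other heterozygous samples was at 7.76, and this gap was 0.926 of the range of the 4, above Dixon's critical value for 4 samples. Arrays 5-6 were also the highest heterozygous sample in 7 of the 9 class II probe sets, none of which stood apart by this measure. Cd52 was 1 of 52 items checked, and chance alone gives a gap above the critical value in about 1 of 20 groups.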

How the results depend on the processing

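The direction of the fold changes of the 10 tested member probe sets held in all 3 comparisons under the 17 alternatives, whereas the number called did not. For 1443783_x_at, 1 of the 10, the direction is a description, because it was tested only through the homozygous arrays. In homozygous tumors against normal pituitary 5 member probe sets were called, beside 2.33% of all tested probe sets. This became 9 with the 12 arrays as separate samples (4.91% of all), with the pair of arrays as a random block (3.84%) and with the one-way test (5.15%). With no filter on low values it was 3 (1.41%), with Xist as a covariate 4 (1.67%) and after centring on housekeeping genes 1 (2.36%). When 1 heterozygous sample was left out it was 0 to 7 (1.35% to 2.67%). In heterozygous tumors against normal pituitary 0 were called (8.68% of all), and 1 with Xist as a covariate (9.92%). When 1 heterozygous sample was left out 0 were called (8% to 9.52%). In homozygous against heterozygous tumors 0 were called (0.249%), as when 1 heterozygous sample was left out (0.139% to 0.956%). With the 12 arrays as separate samples (2.03%) or the one-way test (2.35%) 1 was called. That 1 was 1443783_x_at, which was tested only through its values on the homozygous arrays. The same probe set is in each count of 9 for homozygous tumors against normal pituitary, above and below. H2-DMa stayed just under 2-fold there (log2 fold change 0.97) and is not in these counts. The arrays share replicate numbers 1 and 2 across genotypes, but same-numbered arrays did not deviate together (correlations of 0.0677, -0.0229 and -0.00261). On the 6 arrays with these numbers each tumor genotype is 1 pair, counted above as 1 sample. Calls from those arrays therefore do not measure the spread between tumors. With the replicate number as a block on those 6 arrays, 9 probe sets were called in homozygous and 0 in heterozygous tumors against normal pituitary and 3 between the genotypes (1443783_x_at among them), as without the number. With this block 5.77%, 11.5% and 5.24% of all tested probe sets were called, in the same order. Over the whole array, calls in homozygous tumors against normal pituitary numbered 571, and 1203 with 12 separate arrays, 1413 with the replicate block, 73 without normal array 1 and 64 without normal array 2. Against normal pituitary, some small differences changed sign. In heterozygous tumors, Lamp1 became -0.027 with quantile normalization repeated, -0.0031 after housekeeping centring, -0.044 without arrays 1-2, and ranged from -0.052 to 0.069 without 1 normal array. Cd3e, a T cell marker, became 0.037 in the 6 numbered arrays with or without the replicate block, 0.035 with Xist as a covariate, 0.0078 without arrays 3-4, and ranged from -0.098 to 0.021 without 1 normal array. H2-Ea ranged from -0.16 to 0.11 in homozygous and from -0.21 to 0.059 in heterozygous tumors without 1 normal array. In homozygous tumors without 1 normal array, Creb1 ranged from -0.26 to 0.035, Itgax from -0.091 to 0.014 and Tek, an endothelial marker, from -0.14 to 0.27, and with Xist as a covariate Itgax became 0.80 and Tek -0.24. The cause was not tested. Members dim on most arrays, Ciita above all, are limited by signal over background.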
